A study of Canis lupus familiaris with 34 samples.

Results

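Genes that answer to low oxygen or carry glucose through glycolysis were examined across 34 canine samples hybridized to Affymetrix Canine_2 arrays. A list of 34 genes was taken, and each gene was read from probe sets that the array annotation pairs with that gene's symbol alone. Of the 34 genes, 33 had such a probe set (72 probe sets in all), out of 15115 genes with a symbol of their own. HILPDA had none. A gene with several probe sets was read from the brightest of them on average across the 34 arrays. All values are log2 intensities made by the authors with RMA, so a difference of 1 is a doubling of signal. Levels are compared between samples for one gene at a time, since probe sets of different genes bind with different strength.

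The cultured samples were 10 hemangiosarcoma (HSA) lines, 3 splenic hematoma cultures and 5 osteosarcoma (OSA) lines. Hemangiosarcoma is a malignancy of cells that form blood vessels, splenic hematoma is a non-malignant lesion, and osteosarcoma is a bone tumor. Of the HSA lines, 6 came from Golden Retrievers (ChadG4, ChadG6, ChadG8, Frog, Journey and Tucker), and the others from a Rottweiler (Joey), a Golden Retriever and Great Pyrenees cross (DD1), a Portuguese Water Dog (ChadP9) and a Dalmatian (Dal4). The hematoma cultures came from a Golden Retriever (Pippin), a Standard Poodle (Baxter) and a Keeshond (Kylie), and the OSA lines from Golden Retrievers. The cultured cells were of the earliest passages that had been frozen, grown from tissue under conditions chosen for endothelial cells in the case of HSA and hematoma. The primary samples, taken without culture, were 1 acute lymphoblastic leukemia (ALL), 2 chronic lymphocytic leukemias (CLL), 6 diffuse large B-cell lymphomas (DLBCL), 1 marginal zone lymphoma (MZL) and 6 T-zone lymphomas (TZL). All primary samples came from Golden Retrievers, apart from the ALL sample Rascal, a Golden Retriever mix. Breeds were thus alike in OSA, DLBCL and TZL and mixed in HSA and hematoma, and the labels give 1 array for each line, culture or dog.

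The labels were set against marker genes before the members were read. Markers of fibroblasts and mural cells lay above the array median for 10 of 10 genes on most arrays in each cultured group (list means of 10.57 to 12.66). Endothelial markers did so for 3 of 12 genes in HSA and 5 of 12 in hematoma, with list means of 4.81 to 5.59. Most of those genes were thus not above the median in these cultures, and the same list gave 5 of 12 in OSA and 3 of 12 in DLBCL. The paper reports that each culture carried antigens typical of cells that form blood vessels, which these RNA values do not test. T-cell markers averaged 10.98 to 11.77 in TZL and 8.15 to 9.0 in DLBCL, and in CLL 11.42 and 11.50. B-cell markers averaged 7.98 to 9.97 in TZL and 9.82 to 10.36 in DLBCL, with 6 of 7 genes above the median on most arrays in both. Macrophage and myeloid markers averaged 6.67 to 8.62 in TZL and 6.30 to 7.84 in DLBCL. The lymphoma samples thus carried markers of several cell types. Hybridization spikes, controls added to each sample, read 8.95 to 9.54 on HSA arrays, 9.15 to 9.92 on hematoma, 9.66 to 10.57 on OSA and 9.78 to 11.12 on primary arrays, so HSA arrays did not overlap OSA or primary arrays on this measure.

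When oxygen is scarce, the prolyl hydroxylases encoded by the EGLN genes no longer mark the HIF alpha proteins for destruction through VHL. The HIF complex then activates genes for glucose uptake, glycolysis, acid export, collagen hydroxylation, mitophagy and blood vessel growth. Many tumor cells keep the glycolytic genes active with oxygen present. The study asked, among other things, how HSA cells differ from non-malignant hematoma cells and from other tumors. Its gene set enrichment analysis found sets for hypoxia, cancer or inflammation highly enriched in HSA over hematoma. ADM and SLC2A3 were among the genes recurring in the enriched sets. Calls of single genes, as made below, do not test a result on gene sets. No nucleotide or protein sequence is shown.

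Of the 33 members, 22 lay above their array's median on all 34 arrays, 26 on all 18 cultured arrays and 22 on all 16 primary arrays. PFKFB4 lay above it on no array. The heat map shows all of them by role and sample.

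**Figure D1:**
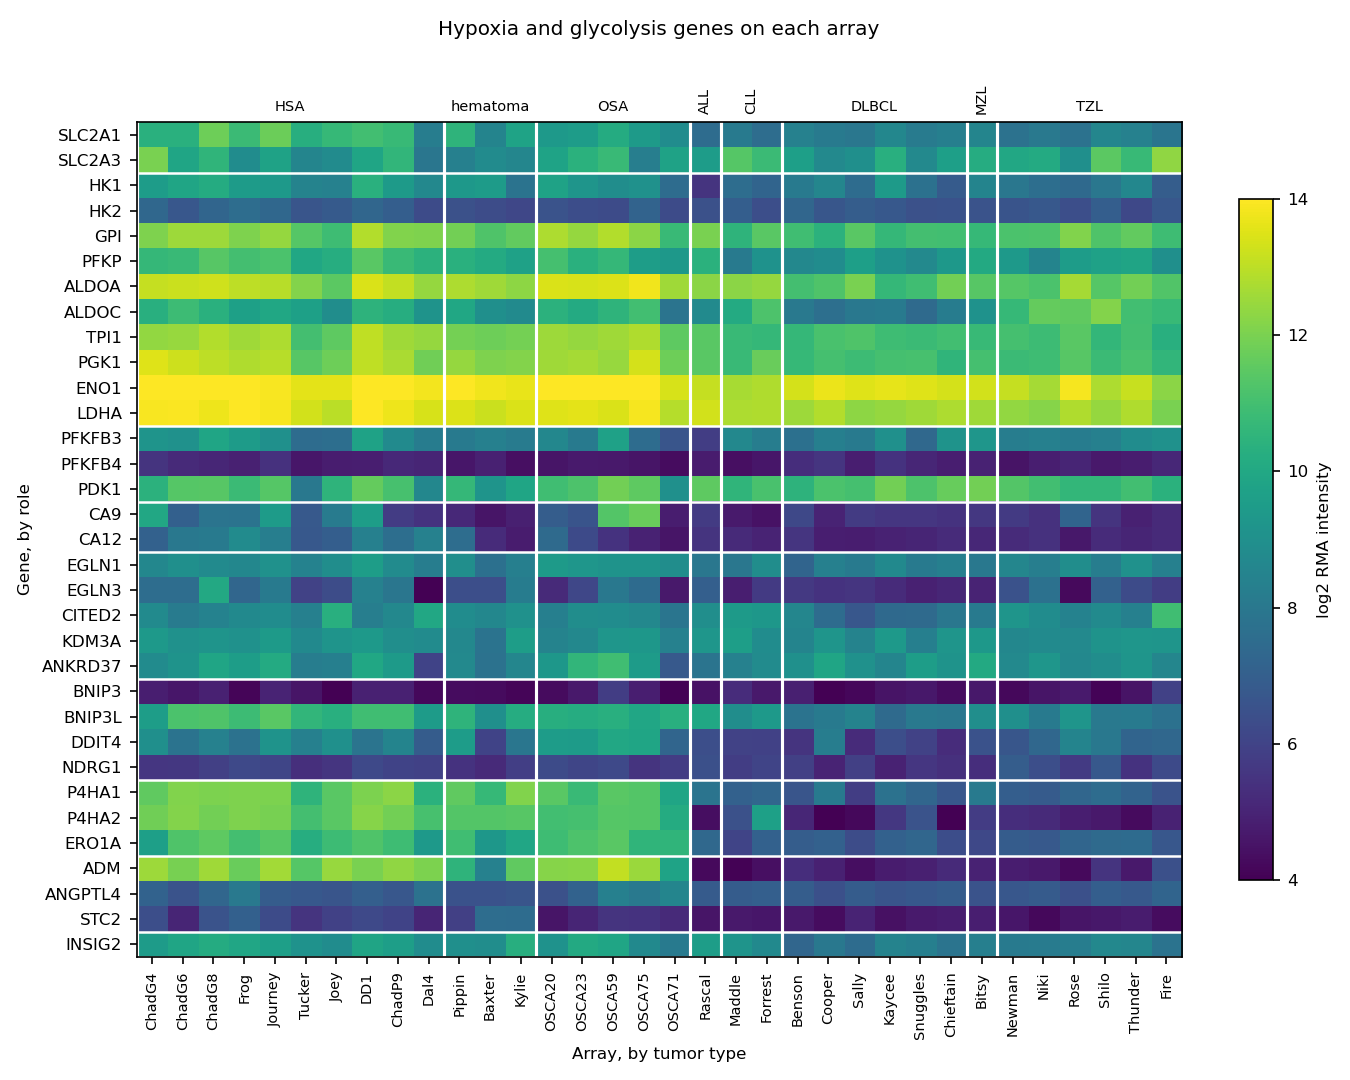
Each row is 1 of the 33 genes, ordered by role from glucose uptake at the top to lipid control, and each column is 1 of 34 arrays, grouped by tumor type. Color gives the log2 RMA intensity from 4 to 14. ADM, P4HA1, P4HA2 and ERO1A are bright on the 18 cultured arrays and dark on the 16 primary ones, apart from P4HA2 in the CLL sample Forrest (9.68).

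Cultured cells differed from primary cells most in a small set of members. ADM, P4HA2, P4HA1 and ERO1A were higher on every cultured array than on any primary array, by 3.86 to 7.33 between medians, and no member lay wholly lower in cultured cells. Over the genes of the array, cultured arrays lay wholly above primary arrays for 2.93%, and wholly below for 2.47%, against 4 of 33 and 0 of 33 members. Culture and tumor type differ together here and cannot be told apart, so no test was made.

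ADM encodes adrenomedullin, a secreted peptide that widens vessels and acts on endothelial cells. Its level in HSA ran from 11.37 through a median of 12.18 to 12.60. In the OSA lines it was 12.20, 12.20, 13.10, 12.49 and 9.81, the last in OSCA71, and in the hematoma cultures 10.50 in Pippin, 8.39 in Baxter and 11.56 in Kylie. On primary arrays ADM was between 4.07 and 6.44, with the highest value in the TZL sample Fire. The lowest cultured value, that of Baxter, was thus 1 of the 3 hematomas and still above all primary samples.

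P4HA1 and P4HA2 encode the catalytic subunits of collagen prolyl 4-hydroxylase, and ERO1A the oxidase that drives disulfide bond formation in the endoplasmic reticulum. P4HA2 was 10.14 to 12.19 on cultured arrays and 3.96 to 9.68 on primary arrays. Most of that primary range came from the CLL samples, with 9.68 in Forrest and 6.46 in Maddle, and from the DLBCL sample Snuggles (6.55). Fibroblast and mural markers averaged 8.58 in Snuggles, the highest of the primary samples, but 5.92 to 5.99 in the CLL samples. P4HA1 was 9.89 to 12.26 in cultured and 5.81 to 8.13 in primary cells. ERO1A was 9.29 to 11.52 in cultured and 6.06 to 7.51 in primary cells. The fibroblast and mural list, which holds collagen genes, averaged 10.57 to 12.66 in cultured cells and 5.54 to 8.58 in primary cells, and its part in these differences was not tested.

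The other members overlapped. SLC2A1, the main glucose transporter of many cells, had a median of 10.31 in cultured and 8.07 in primary cells, a difference of 2.24. BNIP3L, a mitophagy receptor, differed by 2.22, CA12, a membrane carbonic anhydrase, by 2.12, and DDIT4, an inhibitor of mTORC1, by 2.0 between medians. The glycolytic enzymes all had the higher median in cultured cells, from 0.02 for HK2 to 1.68 for HK1. Among them PGK1 and TPI1 fell short of separation through the HSA line Tucker alone, which was at 11.38 and 11.01 against highest primary values of 11.72 and 11.43. LDHA, which turns pyruvate to lactate, overlapped as well, since the ALL sample Rascal (13.31) lay above OSCA71 (12.87), Joey (12.98) and Baxter (13.21) and level with Tucker (13.31). In some paralog pairs the main probe sets differed in a single partner. SLC2A3 differed by -0.32 while SLC2A1 differed by 2.24, and BNIP3 by 0.04 while BNIP3L differed by 2.22. KDM3A (-0.11), PDK1 (-0.21) and PFKFB4 (-0.03) also had no higher median in cultured cells. In all, 29 of 33 members had the higher median in cultured cells, with a median difference of 1.27, against 5661 of 15115 genes and a median of -0.13 over all genes.

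**Figure D2:**
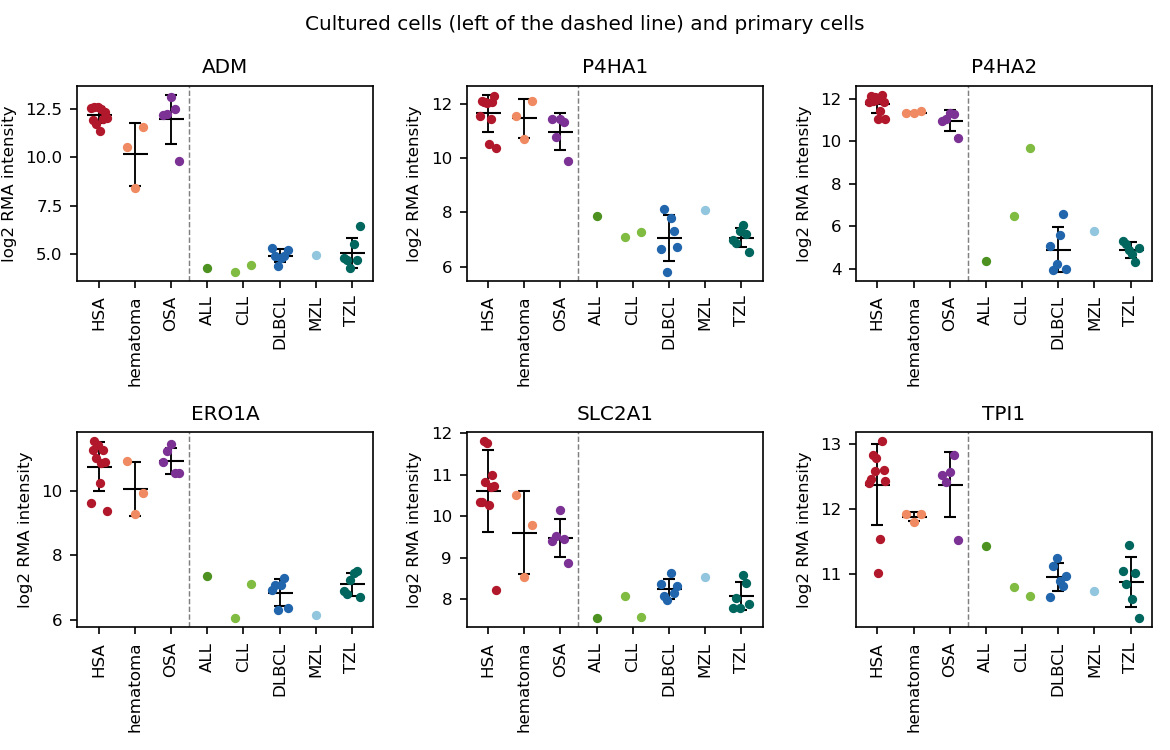
Each point is 1 array, in log2 RMA intensity, by tumor type, with bars for mean ± SD in groups of 3 or more. The dashed line parts the 18 cultured from the 16 primary samples. In ADM, P4HA1, P4HA2 and ERO1A no primary sample reaches the lowest cultured one, while in SLC2A1 the ranges meet through Dal4 (8.24) and Baxter (8.53), and in TPI1 through Tucker (11.01).

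Within the cultured groups, members moved together from line to line. In HSA, the lowest value of a member lay in Tucker for 11 members, in Joey for 7 and in Dal4 for 12 of the 33. These are 33.33%, 21.21% and 36.36% of members, against 12.03%, 11.77% and 16.61% of all genes. Tucker was below the HSA median for 33 of 33 members, Dal4 for 29 and Joey for 27, with median deviations of -0.69, -0.78 and -0.56. Over all genes the deviation of the same arrays was 0.01, -0.01 and -0.02. Array medians lay close together after RMA (5.57 to 5.77), so this all-gene value tends to 0 for any array. It is thus no background for the members. ChadG8 and DD1 were above the HSA median for 29 members each. DD1 was the highest line for 9 members (27.3%, against 5.35% of all genes). In OSA, OSCA71 was the lowest line for 26 of 33 members (78.8%, against 31.1% of all genes) with a median deviation of -0.88. OSCA59 was the highest for 15 (45.45%, against 24.6%). In the hematomas, Baxter was lowest for 20 members (60.6%, against 24.4% of all genes) and Pippin highest for 19 (57.6%, against 37.55%). These arrays are described and not used as groups.

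**Figure D3:**
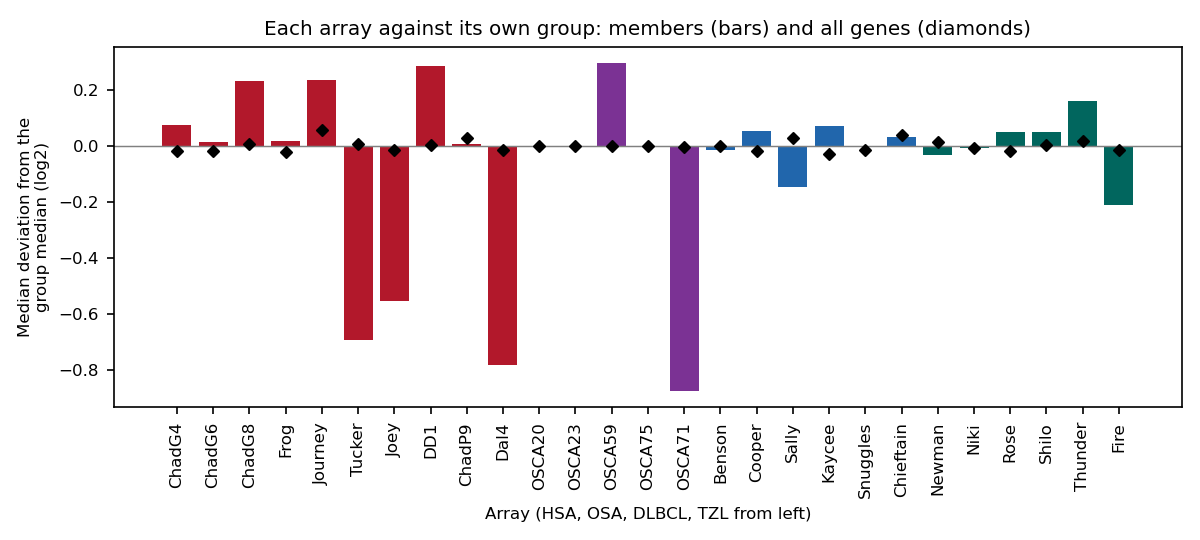
Each bar is the median over the 33 members of an array's deviation from its own group's median (log2), for the HSA, OSA, DLBCL and TZL arrays, and each diamond the same over all genes. Tucker, Joey, Dal4 and OSCA71 have bars between -0.56 and -0.88, while the diamonds stay within 0.06 of zero. After RMA the diamonds tend to zero for any array, so they are no background for the bars.

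The low lines differed in growth markers. The mean of the proliferation list was 6.79 in Tucker and 7.78 in Joey, at the low end of HSA, and 10.38 in Dal4, the highest of HSA. OSCA71 had the highest such mean in OSA (10.94) and OSCA59 the lowest (6.82). A list of other known HIF targets, which holds no member, averaged 8.23, 8.25 and 8.13 in Tucker, Joey and Dal4, the lowest of the HSA lines, and 8.26 in OSCA71 against 8.97 in OSCA59. Transcript quality was read from control probe sets, as the signal of 3′ minus 5′ probes for actin on 3 pairs of controls. Tucker had the highest values in HSA on all 3 pairs (2.52, 1.28 and 0.69) and Joey the next (2.26, 0.75 and 0.18). Dal4 was at 1.82, 0.26 and -0.44, against 1.31 to 1.79, -0.07 to 0.53 and -0.77 to -0.02 in the other 7 HSA lines. The part of this measure in the low values of these lines was not tested. Cell density, medium and oxygen at harvest were not given in the sources used here.

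The swing was wide in some members and narrow in others. PDK1, the kinase that keeps pyruvate from the mitochondria, was 10.44 to 11.63 in 8 HSA lines but 7.99 in Tucker and 8.62 in Dal4. EGLN3, an oxygen sensor that is itself a HIF target, ran from 3.82 in Dal4 to 10.03 in ChadG8, while its paralog EGLN1 stayed between 8.24 and 9.55. CA9, a carbonic anhydrase of the cell surface and a classical hypoxia marker, ran from 5.47 in Dal4 to 10.00 in ChadG4. In OSA it was 11.32 in OSCA59 and 11.72 in OSCA75, yet 6.93 in OSCA20, 6.59 in OSCA23 and 4.81 in OSCA71. ENO1, a glycolytic enzyme at high signal, kept to 13.59 to 14.19 in HSA.

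HSA lines were then compared with hematoma cultures. Each comparison was fitted with limma over all 42860 probe sets that are not controls, with Benjamini-Hochberg adjustment over all of them, and here a probe set was called at an adjusted p under 0.1, the threshold of the study. No member was called (0 of 33), beside 0.119% of all probe sets and 0.139% of genes, and 7 members had an unadjusted p under 0.05. The share of all genes under that unadjusted cutoff was not taken. Such counts, here and below, therefore have no background to be read against. The members' differences were mostly above 0, for 31 of 33, with a median of 0.49 against 0.07 over all genes.

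CA9 had the largest difference. It was 5.15, 4.57 and 4.88 in Pippin, Baxter and Kylie, and from 5.47 through a median of 7.82 to 10.00 in HSA, so that every HSA line lay above every hematoma. The difference was 2.93 (SE 0.855, limma adjusted p = 0.343), and a second probe set gave 2.84. CA12 was 7.57 in Pippin, 5.25 in Baxter and 4.76 in Kylie, against 6.75 to 8.83 in HSA with a median of 8.08. Its difference of 1.99 (SE 0.544, limma adjusted p = 0.310) was 2.84 without Pippin, with an adjusted p of 0.0280. ADM differed by 2.01 (SE 0.474, limma adjusted p = 0.225), by 2.71 without Kylie, with an adjusted p of 0.0509, and by 1.13 without Baxter, its lowest hematoma, with an adjusted p of 0.483. The calls of CA12 and ADM, made without 1 of 3 hematomas, were absent with all 3. Calls over all probe sets went from 51 to 261 without Pippin and to 56 without Kylie.

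Both glucose transporters were on the side of HSA, SLC2A3 by 1.09 (95% interval -0.30 to 2.49) and SLC2A1 by 0.99 (-0.30 to 2.29). SLC2A3 was 8.35, 8.83 and 8.58 in the hematomas and 7.94 to 11.98 in HSA, the highest in ChadG4. The 10 glycolytic enzymes all differed above 0, by 0.12 to 0.73, and none was called. HK2, the hexokinase most tied to tumor cells, differed by 0.71 (SE 0.233, limma adjusted p = 0.395), and HK1, the widespread one, by 0.49. On the other side lay STC2, a secreted glycoprotein, at 5.88, 7.57 and 7.53 in the hematomas and 5.02 to 7.06 in HSA. Its difference was -0.99 (SE 0.436, limma adjusted p = 0.484), and -1.55 without Pippin. CITED2, which competes with HIF for its coactivators, differed by -0.01. With 3 hematomas the intervals were wide, and they leave room for differences of more than a doubling in several members. Baxter was the lowest hematoma for 20 members and had the highest proliferation mean of the 3 (10.43, against 7.24 in Pippin). The part of that in these differences was not tested.

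The rest of the pathway gave no call either. Of 12 HIF pathway regulators, 25 other HIF targets and 25 other genes of glycolysis and lactate handling on the array, 0 were called in each list, with 3, 6 and 5 genes at an unadjusted p under 0.05. The medians of their differences were -0.16, 0.34 and 0.21.

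HSA lines differed from OSA lines in 3 members, called at an adjusted p under 0.05. All 3 were higher in HSA. The same fit called 20.3% of all genes, with 9.93% higher in HSA and 10.4% lower. The members' median difference was 0.20, against -0.02 over all genes, with 18 of 33 above 0.

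CA12 stood out. In OSA it was 7.46 in OSCA20, 6.23 in OSCA23, 5.47 in OSCA59, 4.96 in OSCA75 and 4.56 in OSCA71, against 6.75 to 8.83 in HSA, so that OSCA20 alone reached the HSA range. The difference was 2.11 (SE 0.439, limma adjusted p = 0.00411), a ratio of 4.32. Leaving out any 1 array gave 1.82 to 2.54, with a call each time. CA12 had 1 probe set, of a kind that may cross-hybridize, so no other probe set could check this difference. Its partner CA9 differed by -0.48 (95% interval -2.79 to 1.84), which is wide because CA9 spread widely in both groups.

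P4HA2 was 10.97, 11.07, 11.35, 11.31 and 10.14 in OSA, in the order OSCA20, OSCA23, OSCA59, OSCA75 and OSCA71, and 11.03 to 12.19 in HSA with a median of 11.87. Its difference was 0.78 (SE 0.231, limma adjusted p = 0.0273). The call was lost without OSCA71, at 0.57 (adjusted p = 0.0747), and with Golden Retriever lines alone, at 0.85 (adjusted p = 0.0515). PFKFB4, an enzyme that sets the level of the glycolysis activator fructose 2,6-bisphosphate, differed by 0.46 (SE 0.134, limma adjusted p = 0.0253), with HSA and OSA values of 4.35 to 5.50, below the array median throughout. That call was lost without OSCA75 or OSCA71, and with Golden Retriever lines alone. Its paralog PFKFB3 differed by 0.73 and P4HA1 by 0.67, with no call.

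Other probe sets of the same genes did not always give the same size. For P4HA2, 4 further probe sets gave 0.92, 1.21, 1.90 and 1.86 and were called, and the last gave -0.13. For P4HA1, the probe set next in level gave 0.55 and the third 2.19, the latter called. The third probe sets of HK1 (1.35) and PFKFB3 (1.87) were called too, though their main ones were not, as was a second one of KDM3A (0.58). The 3′ minus 5′ actin signal was 1.31 to 2.52 in HSA and 1.80 to 3.27 in OSA on the first pair of controls, -0.07 to 1.28 and 0.40 to 1.85 on the next, and -0.77 to 0.69 and -0.69 to 0.18 on the last. The part of this measure, and of the hybridization spikes, in the differences between HSA and OSA was not tested.

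Among members without a call, SLC2A1 was 9.40, 9.52, 10.15, 9.45 and 8.87 in OSA and 8.24 to 11.81 in HSA with a median of 10.73. It differed by 1.13 (SE 0.439, limma adjusted p = 0.0821), and was called without Dal4, its lowest HSA line, at 1.39 (adjusted p = 0.00400). With Golden Retriever lines alone it was called at 1.42 (adjusted p = 0.0251). EGLN3 differed by 1.0, and by 0.60 without OSCA71. STC2 differed by 0.85 (limma adjusted p = 0.0558), and was called without ChadG6 (0.96), Tucker (0.91) or Dal4 (0.96), with adjusted p of 0.0277, 0.0492 and 0.0255. HK2 differed by 0.47 and was called without Dal4 or OSCA75 (0.56 and 0.63), and EGLN1 differed by -0.38 and was called without DD1 (-0.46). DDIT4 differed by -0.95 (limma adjusted p = 0.136), and was called lower in HSA without OSCA71, at -1.45 (adjusted p = 0.0104). ANGPTL4, a secreted regulator of lipoprotein lipase, differed by -0.63, and by -0.93 with a call without OSCA20 (adjusted p = 0.0315). Of 10 glycolytic enzymes, 5 differed above 0 and 5 below, with a median of 0.03. ADM differed by 0.20 and SLC2A3 by -0.11, both turning sign when certain arrays were left out. The other probe sets of SLC2A3 gave -0.20, 1.02 and 1.33, with no call.

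In the other lists, 3 of 12 HIF pathway regulators, 4 of 25 other HIF targets and 2 of 25 other glycolysis genes were called, beside the 20.3% of all genes. Among the regulators, ARNT, the partner of the HIF alpha proteins, was higher in HSA by 0.43 and ELOC, a subunit of the VHL complex, by 0.49, while CUL2, the scaffold of that complex, was lower (-1.05). The called targets, all higher in HSA, were PPP1R3C (1.24), GYS1 (0.84) and GBE1 (0.81), which serve glycogen synthesis, and the transferrin receptor TFRC (1.23). Of the other glycolysis genes, TIGAR, a fructose bisphosphatase that slows glycolysis, was higher by 1.41 and the transporter SLC2A6 differed by -1.03.

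**Figure D4:**
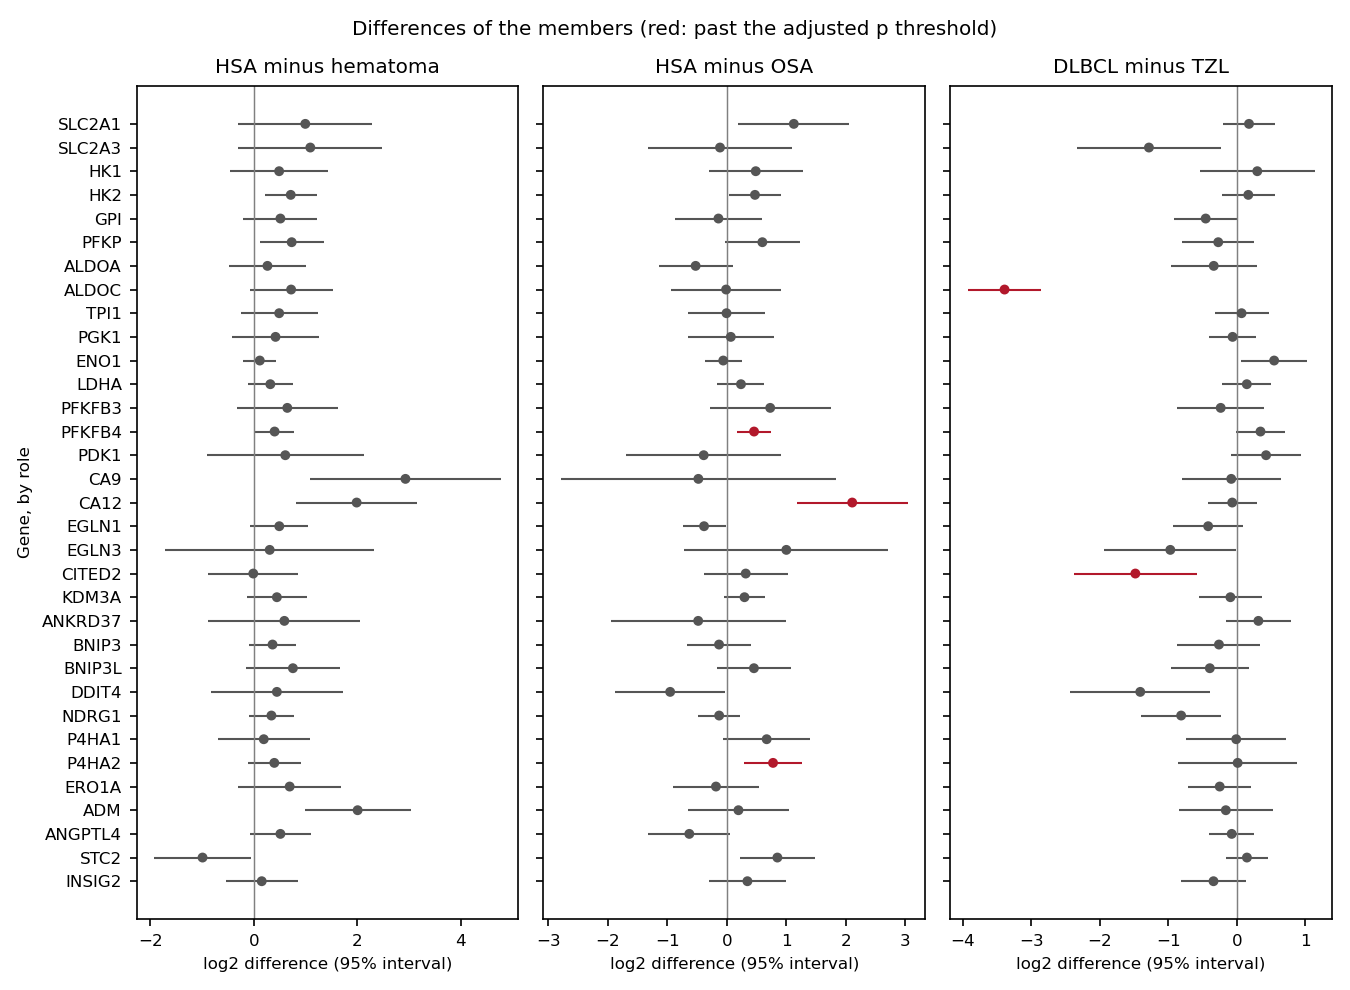
Each point is a member's log2 difference with its 95% interval from limma, for HSA minus hematoma, HSA minus OSA and DLBCL minus TZL, with genes ordered by role. Red marks a call (adjusted p under 0.1 in the left panel, under 0.05 in the others). There are 0, 3 and 2 red points, among them CA12 at 2.11 and ALDOC at -3.39.

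OSA lines and hematoma cultures completed the cultured pairs. They share the hematoma arrays with the first comparison, so their differences are not independent of it. No member was called at an adjusted p under 0.05 (0 of 33, with 6 at an unadjusted p under 0.05), beside 1.94% of probe sets and 2.02% of genes. CA9 differed by 3.41 (95% interval -0.22 to 7.03) and ADM by 1.81 (-0.20 to 3.82), the latter by 0.93 without Baxter. STC2 was 4.56, 5.05, 5.50, 5.45 and 5.19 in OSA, each below the lowest hematoma value of 5.88. Its difference of -1.84 (SE 0.411, limma adjusted p = 0.0597) was called without Pippin, at -2.40 (adjusted p = 0.0182). EGLN3 differed by -0.70, by -0.09 without Kylie, its highest hematoma (8.21), and by -1.12 to -0.29 with 1 OSA line left out. Leaving out OSCA71 gave a call for ALDOA (0.98, adjusted p = 0.0495), and leaving out OSCA20 a call for ANGPTL4 (1.45, adjusted p = 0.0409). Calls over all probe sets, 831 with all arrays, were 349 without Pippin, 501 without OSCA71 and 3572 without OSCA20. All 10 glycolytic enzymes again had differences above 0 or near it, from 0.00 to 0.79.

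Among the primary samples, DLBCL and TZL differed in 2 members, both lower in DLBCL. The same fit called 11.6% of all genes, with 5.66% lower and 5.93% higher in DLBCL. The members' median difference was -0.09, against 0.03 over all genes.

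ALDOC, an aldolase best known from brain that also responds to hypoxia, was 8.04, 7.64, 8.02, 8.09, 7.47 and 8.18 in the DLBCL samples and 10.71, 11.64, 11.56, 12.16, 10.99 and 10.73 in the TZL samples. The groups lay far apart. The difference was -3.39 (SE 0.249, limma adjusted p = 7.75e-06), with TZL higher by a ratio of 10.5, and a second probe set gave -3.71. The CLL samples were at 10.11 and 11.20, the MZL sample at 9.08 and the ALL sample at 8.80. Among primary samples ALDOC was thus highest in TZL and CLL, which also had the highest T-cell marker means. The cultured samples held it at 7.84 to 10.96. Its paralog ALDOA, the enzyme of most tissues, differed by -0.34.

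CITED2 ran from 6.73 through a median of 7.50 to 8.61 in DLBCL and from 8.35 through 8.83 to 10.93 in TZL, overlapping through Benson (8.61). Its difference was -1.48 (SE 0.416, limma adjusted p = 0.0411). The call was lost without any 1 of Cooper, Sally, Kaycee, Snuggles, Newman, Niki or Shilo, at -1.30 to -1.55 with adjusted p of 0.0648 to 0.0832. T-cell markers were lower in DLBCL for 8 of 8 genes, and their part in the ALDOC and CITED2 differences was not tested. Fewer cells of a type and less RNA per cell cannot be told apart in such samples. The 3′ minus 5′ actin values, in the order used above, were 0.67 to 3.46, -0.31 to 2.95 and -0.09 to 0.55 in DLBCL. In TZL they were -0.30 to 4.03, -1.81 to 2.19 and -0.59 to 0.12, with Thunder and Fire highest on each pair. The part of this measure in the differences between DLBCL and TZL was not tested.

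**Figure D5:**
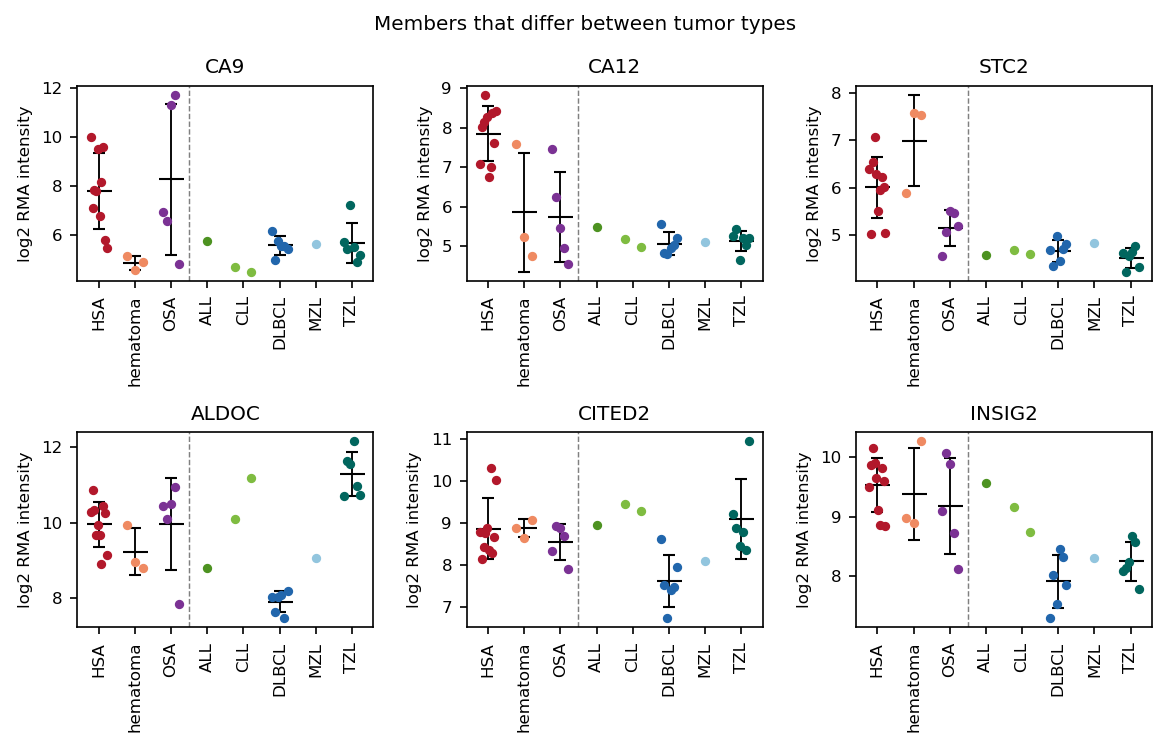
Each point is 1 array, in log2 RMA intensity, by tumor type, with bars for mean ± SD in groups of 3 or more and a dashed line between cultured and primary samples. CA9 spreads from 4.57 to 11.72 among cultured samples, the highest STC2 values are those of the hematomas Baxter (7.57) and Kylie (7.53), and ALDOC parts TZL (10.71 to 12.16) from DLBCL (7.47 to 8.18).

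Of the members without a call, DDIT4 differed by -1.41 (SE 0.475, limma adjusted p = 0.0872). Cooper was at 8.24, while the other DLBCL samples were at 5.22 to 6.39, and without Cooper the difference was -1.84 with a call (adjusted p = 0.00542). SLC2A3, a high-affinity glucose transporter of lymphocytes and neurons, was 8.69 to 10.30 in DLBCL and 8.99 to 12.36 in TZL. It differed by -1.28 (SE 0.490, limma adjusted p = 0.137). SLC2A1 differed by 0.18. The TZL sample Rose had the lowest SLC2A3 (8.99) and EGLN3 (4.26) and the highest ENO1 (13.86) of its group, as well as its highest proliferation mean (10.47). Without Rose, SLC2A3 (-1.61), EGLN3 (-1.38) and ENO1 (0.72) were called as well, for 5 members in all. Calls over all probe sets also rose without Rose, from 4001 to 4547. NDRG1, a stress-responsive HIF target, differed by -0.81 and was called without Thunder (-0.97, adjusted p = 0.0362). On the side of DLBCL the largest differences were ENO1 (0.55) and PDK1 (0.43). Proliferation genes were higher in DLBCL for 4 of 11, with 11 of 11 above 0, and their part was not tested.

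The other lists moved in both directions, with 5 of 25 other HIF targets and 5 of 25 other glycolysis and lactate genes called beside the 11.6% of all genes. Of 25 other HIF targets, BHLHE41 (3.02), the adenosine receptor gene ADORA2B (2.73) and MXI1 (1.04) were higher in DLBCL, while PLOD1, a lysyl hydroxylase (-1.77), and TXNIP, which restrains glucose uptake (-1.19), were lower. Of 25 other glycolysis and lactate genes, 4 were higher in DLBCL and 1 lower. The 4 were PDK3 (1.43), the liver-type phosphofructokinase PFKL (1.42), the pyruvate carrier subunit MPC1 (1.02) and PDHA1 of pyruvate dehydrogenase (0.67). The neuron-type enolase ENO2 was lower (-1.86). No HIF pathway regulator was called (0 of 12), with 0 at an unadjusted p under 0.05.

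Leukemias (3) were set against lymphomas (13). No member was called at an adjusted p under 0.05 (0 of 33), beside 1.32% of probe sets and 1.46% of genes. At an unadjusted p under 0.05 there were 11 members, and the share of all genes at that cutoff was not taken. INSIG2, which holds back sterol synthesis, was 9.56 in Rascal, 9.17 in Maddle and 8.74 in Forrest, against 7.30 to 8.46 in DLBCL, 8.32 in the MZL sample and 7.79 to 8.68 in TZL. The leukemias thus lay above all lymphomas, by a narrow gap. The difference was 1.06 (SE 0.252), and its limma adjusted p of 0.0501 sat at the threshold, passing it without Benson, Shilo, Thunder or Fire (0.0344 to 0.0442). Calls over all probe sets, 567 with all arrays, were 503, 455, 1062 and 1391 in these fits.

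BNIP3L differed by 1.18 (SE 0.325, limma adjusted p = 0.0831), which is no call, and was called without Rose (1.27, adjusted p = 0.0455). P4HA2 differed by 1.88, made by Forrest (9.68) and Maddle (6.46), since Rascal was at 4.36. With CLL alone the difference was 3.12 with a call (adjusted p = 0.0350), and without Forrest it was 0.46. HK1 differed by -1.18 (limma adjusted p = 0.199), and by -0.55 without Rascal (5.51), while its other probe sets gave 0.22 and -1.05. PFKFB3 differed by -0.88, by -0.00313 without Rascal (5.83) and by -1.42 without Maddle. SLC2A3 differed by 0.56, by 1.08 without Rascal and by 0.17 without Maddle. ADM differed by -0.73. Among the other lists, KDM4B (1.17) and the monocarboxylate transporter SLC16A7 (0.78) were higher in leukemia and BHLHE41 (-4.49) lower. The leukemia arrays had 3′ minus 5′ actin values of 3.44 to 3.92, 2.61 to 5.35 and 0.52 to 1.2 on the 3 control pairs, in the order given above. The lymphomas had -0.30 to 4.03, -1.81 to 2.95 and -0.59 to 0.55. Their part in these differences was not tested.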

How the data were processed

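Canine samples (34) were measured on Affymetrix Canine_2 arrays. The deposited values are log2 intensities, produced by the authors through RMA (affy package). Neither a version nor whether all arrays shared 1 run is given in the sources used here. Values ran from 2.03 to 14.98, and array medians from 5.57 to 5.77. The number of arrays limits the precision. Groups came from the tumor type labels. No further normalization was applied. Of 43035 probe sets, 175 controls were left out. Probe sets with 1 gene symbol (29254), several (439) or none (13167) were all tested, and only those with 1 were named. By gene number, 32 members matched the reference gene table.

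Differences were tested with limma 3.58.1 in R 4.3.3 (lmFit and eBayes), with 2 groups in a fit and no filter, and adjusted by Benjamini-Hochberg. Scripts were tested on simulated data. The labels give each array an identifier of its own, and p-values measure the spread between these arrays, part of which may be technical. The members and lists were chosen with earlier results of these data known. Named were all called members, the largest differences without a call, members that separated cultured from primary cells, SLC2A3 and ADM, and paralogs of those named. Arrays that change a call when left out are named beside it, and genes they add were chosen after their values were seen. The alternatives were a filter on low values, a trended robust prior, Student's test, centering, quantile normalization, other probe sets, a shared fit, fewer samples and leaving out each array.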

Additional observations from a re-analysis of the deposited data

Results flagged for a closer look

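Of 132 combinations of a member and a group of 4 to 10 samples, 10 held an array whose gap to its nearest neighbor was large against the range of the group, where chance gives about 1 in 20. In OSA, the line OSCA71 was far below the other lines in 5 members, at 10.79 in GPI, 7.84 in ALDOC, 13.40 in ENO1, 7.25 in DDIT4 and 9.81 in ADM. The nearest other OSA lines were at 12.27, 10.11, 14.08, 9.49 and 12.20. In HSA, the line Dal4 was far below the others at 8.24 in SLC2A1 and 5.99 in ANKRD37, an ankyrin repeat gene induced by HIF, with Tucker next at 10.26 and 8.23. In TZL, Fire was far above the others at 10.93 in CITED2 and 5.95 in BNIP3, and Rose at 7.24 in CA9.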

How the results depend on the processing

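The counts of called members were 0 for HSA against hematoma, 3 for HSA against OSA, 0 for OSA against hematoma, 2 for DLBCL against TZL and 0 for leukemia against lymphoma. For HSA against OSA, quantile normalization gave 4, with STC2 added, and the filter 3, with STC2 in and PFKFB4 not tested. Golden Retriever lines alone gave 2 there, with P4HA2 and PFKFB4 lost and SLC2A1 called. Dropping probe sets that may cross-hybridize or taking the next probe set also gave 2, with CA12 not measured in either. For OSA against hematoma, the filter on low values gave 1 and the fit of all cultured groups 2. For DLBCL against TZL, Student's test, quantile normalization and the next probe set each gave 1. For leukemia against lymphoma, the filter, quantile normalization, dropping probe sets that may cross-hybridize and CLL alone each gave 1, and the shared fit 2. Members separating cultured from primary cells numbered 4. They numbered 2 without probe sets that may cross-hybridize (25 members left) and 2 with the next probe set (21 members). In both settings P4HA1 and P4HA2 still separated, while ADM and ERO1A, with 1 probe set each, were not measured. Leaving out 1 array at a time gave 0 to 1, 2 to 6, 0 to 1, 1 to 5 and 0 to 1 called members in the order above, and 4 to 6 separating members. Over all probe sets the same fits called 23 to 261, 6092 to 10579, 33 to 3572, 2786 to 4547 and 318 to 1391. The 6 calls of HSA against OSA came without Dal4.

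Among named members, the direction turned for CITED2 in HSA against hematoma (0.034 with quantile normalization, -0.17 to 0.092 over arrays left out), SLC2A3 in HSA against OSA (0.14 with Golden Retriever lines alone, -0.50 to 0.14 over arrays left out), ADM in HSA against OSA (-0.34 to 0.48 over arrays left out, the lowest without OSCA71) and in DLBCL against TZL (-0.32 to 0.11, the highest without Fire), and HK1 in leukemia against lymphoma (0.22 with the second probe set, while the third gave -1.05). None of these was called. The cause was not tested. No called member turned. No paired analysis was possible, since the labels pair no array of one group with an array of another.

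Counts over all probe sets moved more. With Student's test they were 16 for HSA against hematoma (51 in the moderated test) and 26 for OSA against hematoma (831), and the shared fit gave 6005 there and 2848 for leukemia against lymphoma (567). HSA against OSA gave 8753, and 4571 with Golden Retriever lines alone. Without cross-hybridizing probe sets there were 29 for HSA against hematoma, 5250 for HSA against OSA, 276 for OSA against hematoma, 2330 for DLBCL against TZL (4001 with all) and 375 for leukemia against lymphoma, where Student's test gave 339.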
